A study of Mus musculus with 22 samples.

Results

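The genes described are 35 genes of proliferation and DNA replication, chosen by name: the parts of the DNA replication machinery, cyclins and cyclin-dependent kinases, mitotic kinases and spindle proteins, and the transcription factors that control them. Of these, 32 had a feature on the array, among 22206 features in all, and Mcm7, Ccnb1 and Foxm1 were not analysed here. Their transcripts were followed around the day in 22 livers, 1 Clariom S array per liver. The mice were males 3 to 8 months old with a global knock-out of adiponectin (B6;129-Adipoqtm1Chan/J, on a C57BL/6J background). Every mouse carried the deletion in all its cells and no wild-type liver was analysed here, so the comparisons are between times of day and none measures what the deletion does. Lights were on for 12 h and off for 12 h, chow was freely available, and mice were killed every 4 h. Times are zeitgeber times (ZT), hours after lights on: ZT2 (4 livers), ZT6 (3), ZT10 (4), ZT14 (4), ZT18 (3) and ZT22 (4), of which the first 3 fall in the light and the last 3 in the dark. Livers of a time are told apart by a letter, as in ZT6b.

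A dividing cell first makes deoxynucleotides and loads the MCM helicase onto its DNA, then copies the DNA in S phase, and then builds the mitotic spindle and separates the chromosomes. Genes of S phase are driven by E2F factors, and genes of mitosis are mostly driven later through a short promoter element called the cell cycle homology region. Most hepatocytes of an adult liver rest outside the cell cycle, and Wee1, a kinase that holds back entry into mitosis, is a known target of the circadian clock in mouse liver.

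Values are on the deposited log scale, read here as log2, and a value of 1 probe says nothing of its amount of RNA against another probe. As a guide to the floor of the array, features of chemosensory receptors, which liver does not use, were used, and the 95th percentile of their mean values, 4.79, is called the background level. Of the 32 genes, 21 had a mean above it, and 11 had a mean above the 99th percentile of the same features (5.57). Among the 13 S phase genes 11 lay above background, with Mcm5 (4.47) and Cdc6 (4.62) below. Of the 5 cyclins and cyclin-dependent kinases 3 lay above, with Ccna2 (3.61) and Cdk1 (2.93) below. Of the 11 genes of mitotic kinases, checkpoint, spindle and chromosomes 6 lay above, with Aurka (4.75), Aurkb (4.41), Bub1 (3.14), Bub1b (4.07) and Cdc20 (3.44) below. Of the 3 transcription factors only E2f8 lay above, with E2f7 at 4.60 and E2f1 at 3.24. A small difference in a gene at such low values could hardly be seen, and a low value does not show that the gene is silent. A large rise in 1 liver could still be seen, as in Cdc20 (7.45 in ZT6b). Each array averages all cells of a liver, so more cells of a type and more RNA per cell cannot be told apart.

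The targeted gene Adipoq lay between 3.30 and 4.69 in the 22 arrays, below background in each, which checks the genotype little because liver makes hardly any adiponectin. A set of 5 livers stood apart from the rest by Tff3, a secreted trefoil peptide, at 10.35 and 11.60 in ZT6b and ZT6c, 13.26 and 13.63 in ZT14b and ZT14d, and 11.42 in ZT22a, against 2.31 to 4.73 in the other 17. ZT6b stood apart a second time, by its mitotic genes. Most results that rest on these livers are given with and without them.

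Few of the proliferation genes passed a test for time of day. In limma's F test of a 24 h cosine wave, with Benjamini-Hochberg adjustment across the 22206 features, 2 of the 32 genes were called at 0.05, Tk1 and Rrm2, where 7.62% of all features and 12.4% of the 12523 features above background were called. With an unadjusted p under 0.05 there were 10 of 32 genes, against 21.1% of all features. All 10 were among the 21 genes above background, where 3773 of the 12523 features above background had such a p. In the test for any difference among the 6 times 1 gene was called, Tk1, against 6.14% of all features. In the contrast of light and dark, 2 genes were higher in the dark, Tk1 and Mcm2, against 3.25% of all features, and 0 were higher in the light, against 2.02%. The adjusted counts are near the background shares, so nothing about the list as a whole is read from them. The unadjusted counts were not tested, and nothing is read from them either. The spread between livers was larger in these genes than in most features: the median SD over the 22 arrays was 0.53, against 0.34 for all features, and the median fitted span from trough to peak was 1.46-fold, against 1.24-fold.

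**Figure D1:**
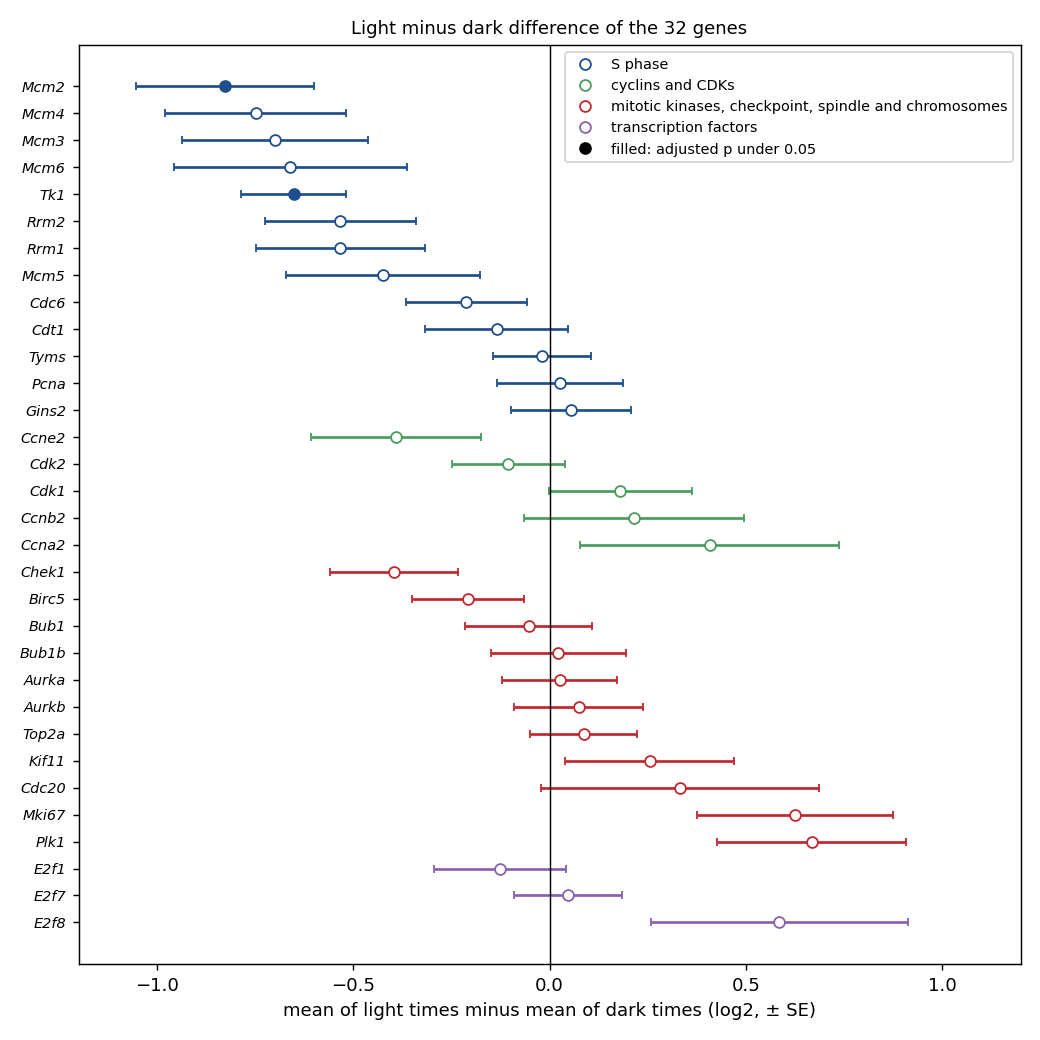
Light minus dark difference of each of the 32 genes (horizontal axis, log2, mean of the ZT2, ZT6 and ZT10 means minus mean of the ZT14, ZT18 and ZT22 means; bars are limma's standard error), grouped and coloured by role, with filled points for an adjusted p under 0.05. Points left of 0 are higher in the dark. There lie 11 of the 13 S phase genes, against 10544 of all 22206 features and 7086 of the 12523 above background. Mcm2 (−0.83) and Tk1 (−0.65) are filled, and the largest positive values belong to Plk1 (0.67) and Mki67 (0.63).

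Thymidine kinase 1 had the clearest time course. Tk1, which phosphorylates thymidine in the salvage route to the DNA precursor dTTP, measured 5.45, 5.33, 6.00 and 5.56 at ZT2, 5.86, 5.25 and 6.17 at ZT6, and 6.07, 6.09, 5.80 and 6.11 at ZT10. In the dark it measured 6.33, 5.66, 5.55 and 6.26 at ZT14, 7.52, 7.17 and 6.93 at ZT18, and 6.34, 6.35, 5.99 and 5.97 at ZT22. All 3 ZT18 livers thus lay above all 19 others, the highest of which reached 6.35; Tk1 was the 1 gene of the 32 so separated, as were 0.194% of all features. The ZT18 mean was 7.21 ± 0.30 (SD, n = 3), and the lowest time mean was 5.58 ± 0.29 at ZT2 (SD, n = 4). The fitted wave peaked at ZT17.5 ± 0.846 h (SE) with a 2.11-fold span (limma adjusted p = 0.0249), and any difference among times had an adjusted p of 0.00102. Light livers averaged 5.79 and dark livers 6.44, a difference of −0.65 ± 0.13 (SE, n = 22 arrays, limma adjusted p = 0.00403). The 24 h call was lost without any of the 3 ZT18 livers or without ZT6b (adjusted p 0.0601 to 0.0786), while the test of any difference and that of light and dark kept their calls in all 22 omissions of 1 array.

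Ribonucleotide reductase, the enzyme that turns ribonucleotides into deoxyribonucleotides, has a large subunit, Rrm1, and a small subunit, Rrm2, whose amount limits its activity. Rrm2 measured 5.81, 5.85, 5.32 and 4.91 at ZT2, 5.61, 6.64 and 4.98 at ZT6, and 6.14, 5.42, 6.49 and 6.56 at ZT10. It measured 6.98, 6.86, 6.55 and 6.29 at ZT14, 6.25, 6.16 and 6.40 at ZT18, and 6.08, 5.87, 5.42 and 6.74 at ZT22. The 4 ZT14 livers lay above the 4 ZT2 livers with no overlap, and each other time overlapped at least 1 of these. ZT14 and ZT2 had the highest and lowest means and were picked for that, and the share of all features with such a gap is not given here. Any difference among the 6 times was not called (limma adjusted p = 0.153). The fitted peak was at ZT15.0 ± 0.937 h (SE) with a 2.09-fold span (limma adjusted p = 0.0263). Omitting ZT2c, ZT2d, ZT14a or ZT14b took the adjusted p to between 0.0560 and 0.0690. Without ZT6b, whose 6.64 was the highest light value, the adjusted p was 0.00534 and light minus dark passed as well (−0.68, adjusted p = 0.0287), where with all arrays it was −0.53 ± 0.19 (adjusted p = 0.113).

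Rrm1 was not called with all arrays (24 h adjusted p = 0.221). It ranged from 5.88 to 6.86 at ZT2, 5.77 to 7.85 at ZT6, 6.88 to 7.13 at ZT10, 6.56 to 7.93 at ZT14, 7.07 to 7.40 at ZT18 and 6.73 to 8.14 at ZT22. Its highest values were those of ZT6b (7.85), ZT14b (7.88), ZT14d (7.93) and ZT22a (8.14), all of them livers with high Tff3. Without the 5 livers of high Tff3 the test of any difference passed (limma adjusted p = 0.0244) and light minus dark was −0.61 (adjusted p = 0.0369). Tyms, which makes dTMP from dUMP in the other route to dTTP, had all 22 values between 7.46 and 8.71 and a fitted span of 1.07-fold (adjusted p = 0.944). Its light values were 8.47, 7.77, 7.69 and 8.31 at ZT2, 7.84, 8.15 and 8.30 at ZT6, and 7.70, 7.77, 7.99 and 8.01 at ZT10. Its dark values were 7.95, 8.71, 7.88 and 8.13 at ZT14, 8.08, 8.12 and 8.09 at ZT18, and 7.99, 7.46, 8.04 and 7.78 at ZT22. The 3 ZT18 values lay close together, inside the ranges of ZT2, ZT6 and ZT14 and above those of ZT10 and ZT22. These times were compared after their values were seen, with no share of all features beside them.

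The MCM genes encode subunits of the helicase that unwinds DNA at the replication fork. All 5 measured, Mcm2 to Mcm6, had a higher mean in the dark, with light minus dark at a median of −0.70, against 0.013 over all features, and 1 of them passed. They are not 5 independent results, since they varied together between livers of a time. The median correlation of their deviations from the time means was 0.71, and 0.15 without the livers of high Tff3. Mcm2 measured 5.48, 5.88, 5.23 and 4.66 at ZT2, 4.42, 5.48 and 5.58 at ZT6, and 5.63, 5.12, 5.03 and 4.92 at ZT10. It measured 5.37, 6.57, 5.85 and 7.42 at ZT14, 5.67, 5.91 and 6.15 at ZT18, and 6.85, 5.35, 6.05 and 5.42 at ZT22. Light and dark values overlapped, but the highest light value was 5.88, while dark values reached 7.42 in ZT14d. The light mean was 5.22 and the dark mean 6.04 (−0.83 ± 0.23, SE, limma adjusted p = 0.0313). This call was lost in 9 of the 22 omissions of 1 array (adjusted p up to 0.0741, without ZT6a). Without the livers of high Tff3 the difference was −0.74 (adjusted p = 0.0385) and the 24 h test passed too (adjusted p = 0.0468, against 0.0777 with all arrays).

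Mcm3 lay near background, at 4.63, 4.27, 5.32 and 4.66 at ZT2, 3.85, 4.07 and 4.87 at ZT6, and 4.59, 4.17, 4.44 and 5.23 at ZT10. It measured 4.05, 5.40, 4.53 and 6.60 at ZT14, 5.32, 5.40 and 5.92 at ZT18, and 5.52, 4.29, 5.19 and 5.00 at ZT22. The ZT18 livers were at or above every light liver, and ZT14 spanned nearly the whole range. ZT18 was picked for its high values, and the share of all features so placed is not given here. Light minus dark was −0.70 ± 0.24 (adjusted p = 0.0886), and the 24 h adjusted p was 0.0953. The other 3 were not called in any of the 3 tests. Light minus dark was −0.75 ± 0.23 for Mcm4 (adjusted p = 0.0586), −0.42 ± 0.25 for Mcm5 (0.371), which lay below background, and −0.66 ± 0.30 for Mcm6 (0.221). Without the livers of high Tff3 these differences were −0.54 for Mcm4, −0.22 for Mcm5 and −0.35 for Mcm6, and that of Mcm3 is not given here.

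**Figure D2:**
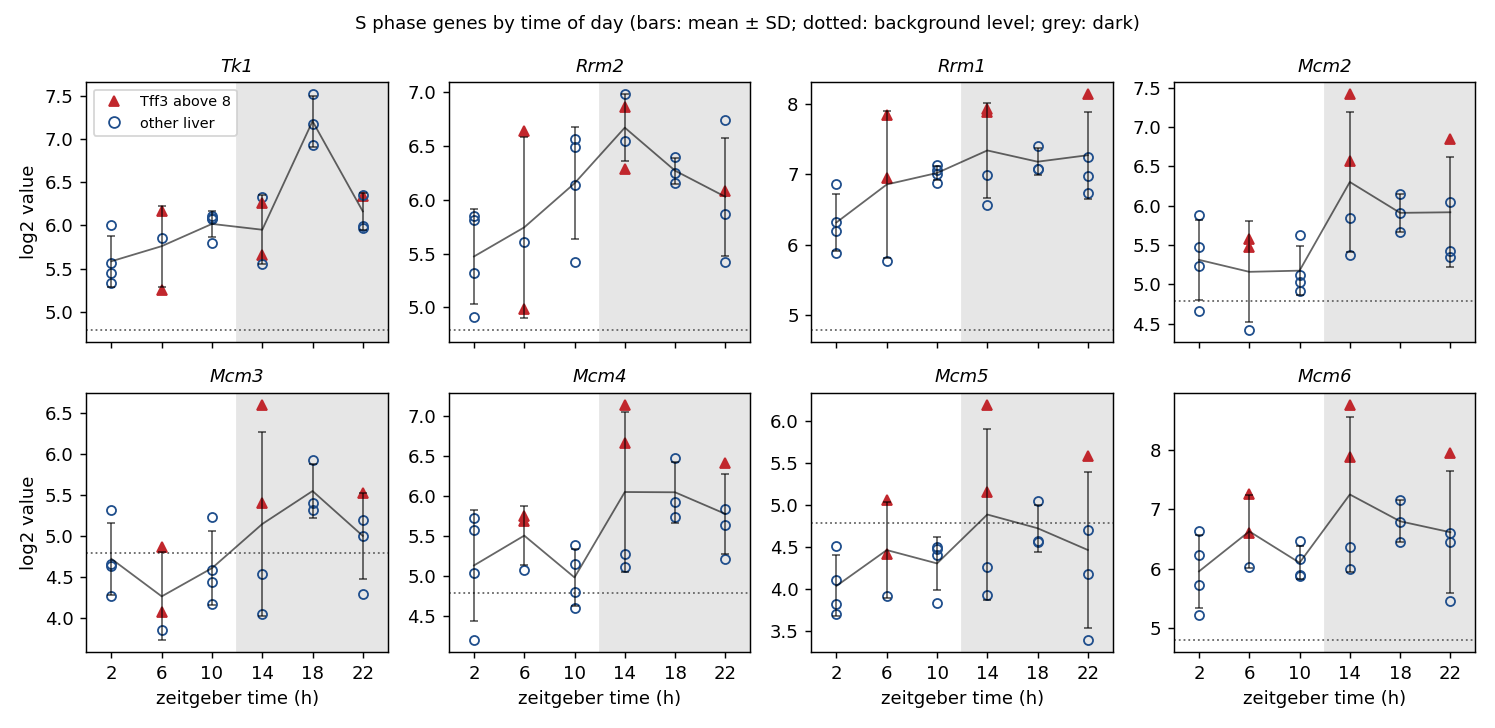
Log2 values (vertical axis) of 8 S phase genes in all 22 livers by zeitgeber time (horizontal axis, hours), with mean ± SD per time (line and bars), the dark phase in grey and the background level of 4.79 dotted. Red triangles are the 5 livers with Tff3 above 8, which hold the top values of Mcm2 to Mcm6 and Rrm1 at ZT6, ZT14 and ZT22. In Tk1 the 3 ZT18 livers lie above all others.

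Within a time, the MCM genes and Rrm1 went with Tff3. Mcm6 measured 7.26 in ZT6b and 6.60 in ZT6c, against 6.03 in ZT6a, and 7.89 in ZT14b and 8.77 in ZT14d, against 5.99 in ZT14a and 6.36 in ZT14c. At ZT22 it measured 7.96 in ZT22a, against 5.45, 6.45 and 6.60 in the other 3 livers. In each of the 5 livers of high Tff3, Mcm2, Mcm3, Mcm4, Mcm5, Mcm6, Rrm1 and Mki67 lay above every liver of low Tff3 of their time, which is 7 of the 32 genes and 6 of the 13 S phase genes, against 4.76% of all features and 7.47% of those above background. In the opposite direction there were 0 of the 32, against 808 of all 22206 features, so nothing is read from that 0. By the same comparison Pcna and Tyms lay above in 4 of the 5 livers, Tk1 and Rrm2 in 1. The wider lists of pathway genes described further on gave 2 of 38 replication genes (5.26%) and 3 of 45 mitosis genes (6.67%), near the share of all features. The list of G1 regulators and inhibitors was not counted in this way. From it Cdkn1a, an inhibitor of cyclin-dependent kinases picked after its values were seen, also lay above in all 5 livers. It measured 7.27 and 5.11 in ZT6b and ZT6c, against 3.24 in ZT6a, and 8.89 and 9.02 in ZT14b and ZT14d, against 4.90 and 5.51. In ZT22a Cdkn1a measured 9.53, against at most 9.33. The mean of the 13 S phase genes was 6.91 in ZT14b and 7.22 in ZT14d, against 6.03 in ZT14a and 6.18 in ZT14c, and 6.78 in ZT22a, against 5.96 to 6.23 in the other ZT22 livers. Some markers of other cells moved with the same livers. Of 45 markers of 10 cell types, 5 lay above every liver of low Tff3 of their time in all 5 livers and 3 lay below. Of all 22206 features, 1058 lay above in this way and 808 below. Those above were Lyve1 and Pecam1 of the 5 markers of sinusoidal endothelium, Cd5l of the 6 of Kupffer cells, Alas2 of the 3 of erythroid cells and Cps1 of the 5 of hepatocytes, and those below were Serpina1a of hepatocytes, Krt19 of cholangiocytes and Ltf of neutrophils. Lyve1, a hyaluronan receptor of sinusoidal endothelium, measured 8.04 and 7.60 in ZT6b and ZT6c, against 5.09 in ZT6a. It measured 8.63 and 8.43 in ZT14b and ZT14d, against 5.59 and 6.59 in the other ZT14 livers. In ZT22a it measured 8.16, against at most 7.46. Other endothelial markers went the other way in part. Stab2 measured 7.96 and 7.89 in ZT14b and ZT14d, against 8.59 and 8.91, and 8.52 in ZT22a, against at least 9.28. At ZT6 it lay on both sides of ZT6a (8.47 and 8.80, against 8.72). Clec4g was lower in ZT6b (9.94, against 10.54 in ZT6a) and ZT14b (9.80, against at least 10.18), but not in ZT14d or ZT22a. The summed levels overlapped: the endothelial sum was 11.72 to 12.47 in the 5 livers, against 11.67 to 12.64 in the 6 other livers of these times, the Kupffer cell sum 10.45 to 10.91 against 9.93 to 10.74, the erythroid sum 10.85 to 11.41 against 10.16 to 11.14, and the lymphocyte sum 6.73 to 7.44 against 6.56 to 6.83. The 5 livers were picked by their values, so no test was made, and the part of these cells in the S phase values was not tested.

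None of the loading factors passed a test. Cdc6 and Cdt1, which bring the helicase to origins, had light minus dark values of −0.21 ± 0.15 and −0.13 ± 0.18, and Gins2, a subunit of the GINS complex that activates it, 0.05 ± 0.15. Gins2 stayed between 4.32 and 5.61 in all livers with a fitted span of 1.07-fold. Pcna encodes the sliding clamp that holds DNA polymerase on its template. It measured 11.35, 10.94, 11.29 and 11.75 at ZT2, 11.58, 11.85 and 11.55 at ZT6, and 11.65, 11.38, 11.61 and 11.45 at ZT10. It measured 11.29, 12.23, 11.38 and 12.47 at ZT14, 11.55, 11.38 and 11.53 at ZT18, and 11.94, 10.93, 10.49 and 11.06 at ZT22. The 3 highest were ZT14d, ZT14b and ZT22a, and the times overlapped (24 h adjusted p = 0.265, light minus dark 0.03 ± 0.16).

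E2F words were found mainly in promoters of S phase genes and cell cycle homology words mainly in promoters of mitotic genes, with exceptions. A window from 250 bases before to 50 bases after the RefSeq start (assembly GRCm38.p6) was found for 27 of the 32 genes and searched on both strands for the E2F words TTTCCCGC, TTTCGCGC, TTTGCCGC and TTTGGCGC, the cell cycle homology region as TTTGAA or TTCGAA, the CCAAT box as CCAAT, and the E-box as CACGTG. An E2F word stood in 5 of 11 S phase promoters (45.5%) and in 0 of 10 promoters of mitotic kinases, checkpoint, spindle and chromosomes, against 2.26% of all 32851 promoters. A cell cycle homology word stood in 1 of 11 S phase promoters (9.09%) and in 8 of 10 mitotic ones (80%), against 19.2% of all. Of the 3 promoters of cyclins and CDKs, 2 held an E2F word and 2 a cell cycle homology word. Cdk1, the kinase that starts mitosis, held both, with TTTCGCGC at −131. The CCAAT box, which lies near both kinds, was in 74.1% of the 27 against 37.4% of all, and the E-box, the site of the clock factors, in 3.70% (Tyms alone) against 7.15%. Words may overlap, as TTTGGCGC and the reverse complement of TTTCGCGC do in Mcm6. These matches are letters in a window and not shown to be used, and Tk1 and Rrm2, the 2 rhythmic genes, hold no E2F word in theirs. The windows of 2 MCM genes are shown because they hold several E2F words, and those of Plk1 and Cdc20 because they hold the cell cycle homology word and lead the mitotic genes of ZT6b. Capitals mark every match of the 4 motifs, read 5′ to 3′ on the gene's strand.
Mcm3 (chr1:20820263-20820562, minus strand): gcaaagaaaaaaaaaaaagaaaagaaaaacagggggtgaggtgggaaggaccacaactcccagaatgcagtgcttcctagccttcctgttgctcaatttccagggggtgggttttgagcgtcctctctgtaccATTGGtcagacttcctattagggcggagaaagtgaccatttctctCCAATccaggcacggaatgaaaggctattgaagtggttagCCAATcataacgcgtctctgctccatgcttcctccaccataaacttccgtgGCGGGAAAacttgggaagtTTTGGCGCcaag
Mcm6 (chr1:128359656-128359955, minus strand): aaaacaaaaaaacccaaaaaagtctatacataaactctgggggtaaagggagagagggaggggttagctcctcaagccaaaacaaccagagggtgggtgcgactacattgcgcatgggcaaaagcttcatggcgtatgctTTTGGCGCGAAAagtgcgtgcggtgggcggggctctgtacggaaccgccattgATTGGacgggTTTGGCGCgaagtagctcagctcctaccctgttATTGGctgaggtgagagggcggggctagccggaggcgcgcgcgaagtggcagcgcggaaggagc
Plk1 (chr7:122159185-122159484, plus strand): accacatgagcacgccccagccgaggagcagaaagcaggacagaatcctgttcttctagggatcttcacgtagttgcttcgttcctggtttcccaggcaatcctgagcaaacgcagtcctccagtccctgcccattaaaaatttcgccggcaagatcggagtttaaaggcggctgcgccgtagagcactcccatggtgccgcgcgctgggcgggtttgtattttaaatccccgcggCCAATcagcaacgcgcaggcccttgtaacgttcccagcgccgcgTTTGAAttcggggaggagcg
Cdc20 (chr4:118437294-118437593, minus strand): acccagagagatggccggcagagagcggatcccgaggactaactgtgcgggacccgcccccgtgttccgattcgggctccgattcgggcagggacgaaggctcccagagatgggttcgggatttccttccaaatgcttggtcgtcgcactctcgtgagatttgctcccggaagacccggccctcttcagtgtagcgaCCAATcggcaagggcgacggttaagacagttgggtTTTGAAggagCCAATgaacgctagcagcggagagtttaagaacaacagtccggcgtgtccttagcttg
In Mcm3 the 2 E2F words start at bases 19 and 38 after the start site, with 3 CCAAT boxes before it, and in Mcm6 the 3 E2F words lie at −110, −106 and −47. In Plk1 the word TTTGAA lies at 30 with a CCAAT box at −14, and in Cdc20 TTTGAA lies at −18 between CCAAT boxes at −53 and −8.

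None of the 5 cyclins and cyclin-dependent kinases passed a test. Ccne2, the cyclin E2 that drives the entry into S phase with Cdk2, measured 5.25, 4.35, 3.97 and 4.38 at ZT2, 4.65, 4.39 and 4.99 at ZT6, and 5.14, 5.38, 4.08 and 5.65 at ZT10. It measured 4.87, 5.40, 5.32 and 6.08 at ZT14, 4.85, 5.74 and 5.37 at ZT18, and 5.61, 3.89, 4.22 and 4.93 at ZT22. Times overlapped, with the highest time mean at ZT14 (5.42 ± 0.50, SD, n = 4) and a fitted span of 1.96-fold (adjusted p = 0.0829). Leaving out ZT2a, ZT10c or ZT22a brought that p to between 0.0328 and 0.0441. Cdk2 measured 8.24, 8.04, 8.09 and 8.22 at ZT10, above all ZT2 and ZT6 livers (7.20 to 7.67), and the dark livers ranged from 6.98 to 8.25. These times were set against each other after their values were seen, and the share of all features with such a gap is not given here. The test of any difference among times did not call Cdk2 (limma adjusted p = 0.215). Cdk1, Ccna2 and Ccnb2, the kinase and cyclins of mitosis, belong with the mitotic genes below.

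The mitotic genes were low in 21 livers and high in 1. Over 13 genes (Ccna2, Ccnb2, Cdk1, Plk1, Aurka, Aurkb, Bub1, Bub1b, Cdc20, Birc5, Kif11, Top2a and Mki67) liver ZT6b had a mean of 6.41, against 4.11 to 4.58 in each of the other 21 livers. It held the highest value of all 22 livers in 12 of the 13, with Bub1 (3.30, against 4.01 in ZT10d) the exception, where it held the highest value in 8.51% of all features. Mki67, the Ki-67 protein of dividing cells, measured 8.57 in ZT6b, against at most 5.95 in the others (median 5.00). Plk1, the polo-like kinase of mitotic entry and spindle assembly, measured 8.11, against at most 5.15 (median 4.63). Cdc20, which activates the anaphase-promoting complex, measured 7.45, against at most 3.90 (median 3.30). Each of these lies more than 2 log2 units above every other liver. The cyclins stood out in the same way, with Ccnb2 at 8.28, against at most 5.93, and Ccna2 at 6.93, against at most 4.20. Kif11, the kinesin that pushes spindle poles apart, measured 6.69, against at most 5.51. Smaller gaps were seen in Aurkb (5.96, against at most 4.75), Cdk1 (4.60 against 3.90), Aurka (5.73 against 5.16), Bub1b (5.20 against 4.62), Top2a (6.23 against 5.99) and Birc5 (6.28 against 6.16). With 1 liver there is no replicate of this state and no test was made, and all of these genes except Plk1 were chosen after their values were seen.

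**Figure D3:**
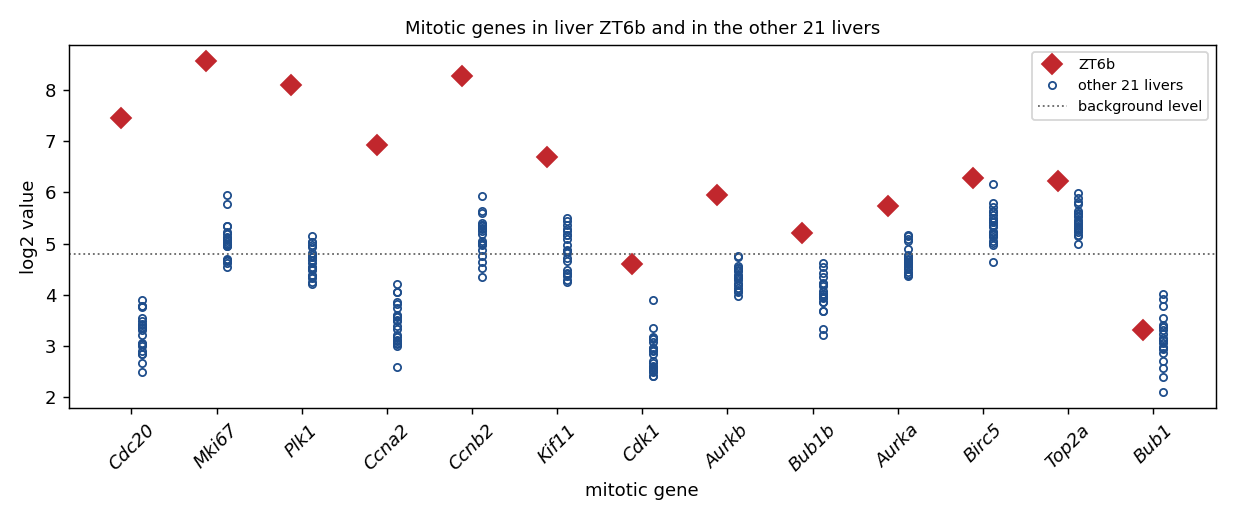
Log2 values (vertical axis) of 13 mitotic genes in liver ZT6b (red diamonds) and in the other 21 livers (blue circles), with the background level of 4.79 dotted. ZT6b lies above all others in 12 of the 13 genes, by the widest margin in Cdc20 (7.45, against at most 3.90), and below ZT10d in Bub1.

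S phase genes did not stand apart in that liver to this extent. The mean of the 13 S phase genes was 6.33 in ZT6b, against 6.30 in ZT6c and 5.83 in ZT6a, and ZT6b held the highest value of its time in 6 of them, where 34.8% of all features did, against 13 of 13 mitotic genes. Tk1 was lower in ZT6b (5.25) than in every other liver. Rrm2 (6.64), Rrm1 (7.85), Mcm4 (5.75), Mcm6 (7.26), Gins2 (5.56) and Pcna (11.85) had their highest ZT6 value there. The means of markers of other cells lay above background in 6 of 6 markers of Kupffer cells, 5 of 5 of sinusoidal endothelium, 5 of 5 of stellate cells, 2 of 4 of cholangiocytes, 2 of 3 of erythroid cells, 1 of 5 of neutrophils, 0 of 3 of neutrophil precursors, 0 of 6 of lymphocytes and 0 of 3 of plasma cells. The summed level of each of these lists in ZT6b lay within the range of the other livers. Counted from the highest of the 22 livers, ZT6b ranked 2 for neutrophils (log2 sum 6.68, highest 6.80) and 3 for erythroid cells (11.37, highest 11.41). It ranked 5 for stellate cells, lymphocytes and plasma cells, 6 for cholangiocytes, 7 for neutrophil precursors, 11 for Kupffer cells and 17 for sinusoidal endothelium. The erythroid sum rests on Alas2 (11.32), while Slc4a1 (6.31) and Klf1 (3.53) lay below their means of 6.54 and 3.69. The neutrophil sum rests on S100a9 (6.08), with S100a8, Ltf and Camp below their means and Ngp (3.48) above its mean of 3.25. The hepatocyte sum was the lowest of all livers by a small margin (21.60, highest 21.79). Alb, Apoa1, Ttr and Serpina1a, which make up most of it, lay near 19.87, the highest value on these arrays, so this sum says little of hepatocyte content. Cps1, at 17.72 in ZT6b, lay above its mean of 17.61. The part of cell composition in the mitotic values was not tested.

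**Figure D4:**
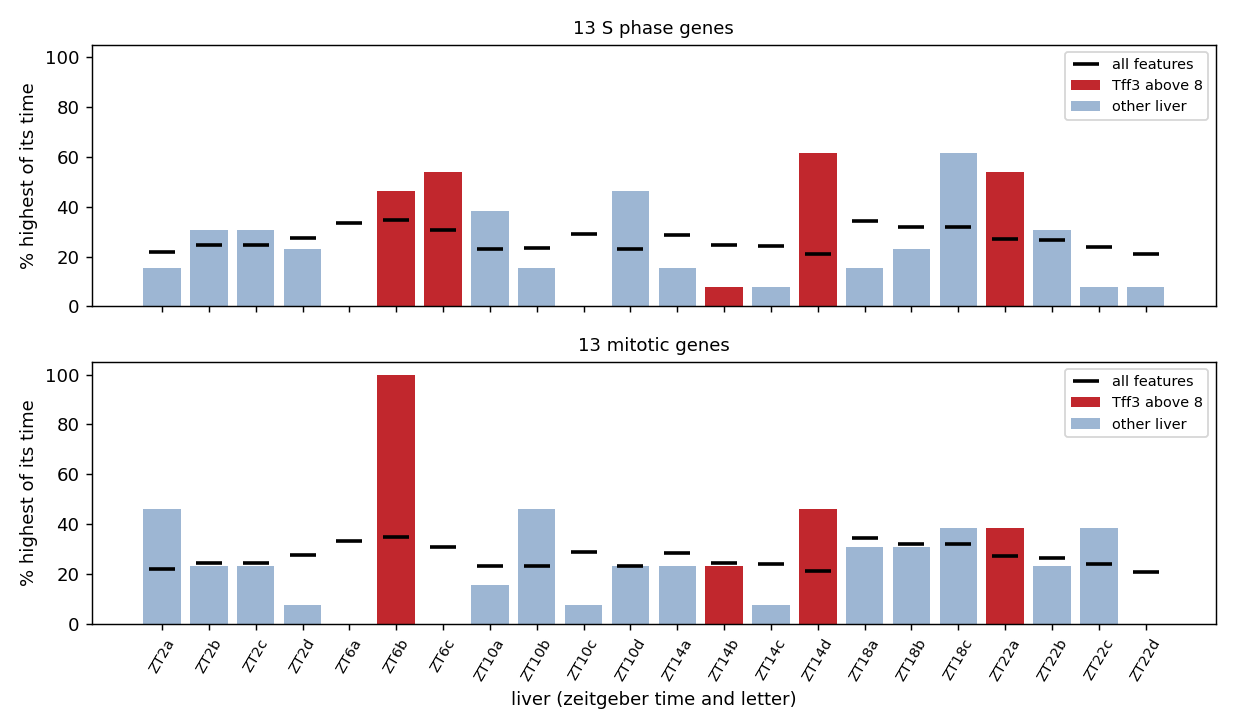
Percent of 13 S phase genes (upper panel) and 13 mitotic genes (lower panel) in which each liver had the highest value of its time (vertical axis), by liver (horizontal axis), with red bars for livers with Tff3 above 8 and black marks for the same percent over all features. ZT6b reaches 13 of 13 mitotic genes, where 34.8% of all features had it highest, and ZT14d and ZT18c reach 8 of 13 S phase genes.

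The time courses of the mitotic genes carry this liver. Plk1 measured 5.03, 4.81, 4.78 and 4.39 at ZT2, 5.03, 8.11 and 5.15 at ZT6, and 4.32, 4.94, 4.67 and 4.74 at ZT10. It measured 4.63, 4.55, 4.50 and 4.98 at ZT14, 4.20, 4.25 and 4.52 at ZT18, and 4.53, 4.36, 4.73 and 4.48 at ZT22. Apart from ZT6b, all values lay within 4.20 to 5.15. The other 2 ZT6 livers, at 5.03 and 5.15, were level with or above the highest ZT2 liver (5.03) and above every liver of ZT10 to ZT22 (at most 4.98). That comparison was picked after the values were seen, and the share of all features so placed is not given here. Its fitted 24 h amplitude was 0.58 (limma adjusted p = 0.156) with all arrays and 0.26 (0.134) without ZT6b, and that of Mki67 was 0.55 (0.230) with all arrays and 0.22 (0.416) without ZT6b. Light minus dark was 0.67 ± 0.24 for Plk1 and 0.63 ± 0.25 for Mki67 with all arrays, and 0.33 and 0.30 without ZT6b, not called in any of these fits. Removing a different ZT6 liver, which leaves ZT6b with more weight, brought calls: Plk1 and Mki67 passed the test of any difference without ZT6a (adjusted p = 0.0192 and 0.00717). Light minus dark passed there too, at 0.85 for Plk1 and 0.84 for Mki67 (limma adjusted p = 0.0303 and 0.0282). Without ZT6c, Plk1 passed the test of any difference (adjusted p = 0.0348) and that of light and dark (0.83, adjusted p = 0.0380).

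Chek1, the checkpoint kinase that restrains mitosis when replication stalls, was not raised in ZT6b. It measured 7.79, 7.16, 7.82 and 8.02 at ZT2, 7.64, 7.50 and 7.26 at ZT6, and 7.74, 7.45, 7.97 and 7.68 at ZT10. It measured 8.26, 8.17, 8.02 and 9.05 at ZT14, 7.68, 7.66 and 8.12 at ZT18, and 8.37, 8.41, 7.02 and 7.67 at ZT22. The 4 ZT14 livers were at or above every light liver, with ZT14d highest. ZT14 was picked for its highest mean, and the share of all features so placed is not given here. Light minus dark was −0.40 ± 0.16 and did not pass (adjusted p = 0.174).

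Among the transcription factors E2f8, a repressor of E2F target genes with a role in the polyploidy of mouse hepatocytes, varied most between livers. It measured 8.73, 9.42, 10.42 and 7.78 at ZT2, 8.01, 8.57 and 8.59 at ZT6, and 7.72, 8.87, 8.36 and 9.41 at ZT10. It measured 7.08, 7.06, 8.17 and 7.46 at ZT14, 7.47, 9.06 and 7.84 at ZT18, and 8.92, 6.87, 10.09 and 9.10 at ZT22. ZT14 was lowest on average (7.44 ± 0.52, SD, n = 4) and ZT2 highest (9.09 ± 1.11, SD, n = 4), with overlap. The SD over all livers was 0.97 and the fitted span 2.44-fold with a peak at ZT2.40 ± 1.39 h (SE), which did not pass (adjusted p = 0.180). Its partner E2f7 and the activator E2f1 lay below background, with adjusted p-values of 0.311 and 0.953.

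Other genes of the same pathways were taken from 3 lists. Of 38 measured replication genes 3 were called for a 24 h rhythm, 2 for any difference, 1 as higher in the dark and 1 as higher in the light. These are 7.89%, 5.26%, 2.63% and 2.63% of the list, against 7.62%, 6.14%, 3.25% and 2.02% of all features, so nothing is read from the counts themselves. Mcm10, which helps to activate the helicase, fell in the dark where Mcm2 rose: it averaged 13.16, 13.74 and 13.97 at ZT2, ZT6 and ZT10 and 12.69, 12.93 and 12.53 at ZT14, ZT18 and ZT22 (light minus dark 0.90 ± 0.15, limma adjusted p = 0.000582, fitted peak at ZT7.61, span 2.58-fold, adjusted p = 0.00203). Gmnn, geminin, the inhibitor of Cdt1, spanned 1.79-fold with its peak at ZT9.24 (adjusted p = 0.0255), and Rpa3, a subunit of the single-strand binding protein, 1.74-fold with a peak at ZT22.4 (0.0378). The fourth, Prim1, the catalytic subunit of primase, was not called (0.0540). Asf1b, a histone chaperone, was the gene higher in the dark (−0.66 ± 0.16, adjusted p = 0.0152; chosen after its values were seen), and that call was lost without the livers of high Tff3 (−0.52, 0.108).

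Of 45 measured mitosis genes 3 were called for a 24 h rhythm, 1 for any difference, 0 as higher in the dark and 1 as higher in the light. The rhythmic share of 6.67% and the 2.22% for any difference lie below the 7.62% and 6.14% of all features, and the 2.22% higher in the light lies near the 2.02% of all. Cks2, a subunit of cyclin-dependent kinases, spanned 1.62-fold with its peak at ZT21.3 (limma adjusted p = 0.0224), and Spc25 of the kinetochore 1.94-fold at ZT8.57 (0.0400), while Pttg1, securin, was not called (0.101). Kif22, a chromosome-bound kinesin and also the gene called as higher in the light, had a mean of 3.93, below background, so its call (0.0430) is given without a fold. Without ZT6b the calls of Spc25 (0.0721) and Kif22 (0.117) were lost, and without all livers of high Tff3 that of Cks2 too (0.0817), leaving 0 of 45. Liver ZT6b held the highest of all 22 values in 32 of the 45 genes, where it did so in 8.51% of all features. Of 2 genes of cytokinesis chosen after their values were seen, Kif20a measured 7.65, against at most 4.27, and Ect2 8.75, against at most 6.24. The lead was narrow in others, as in Bub3 (10.87, against at most 10.78).

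The third list holds G1 regulators and inhibitors of the cycle. Of its 36 measured genes 7 were called for a 24 h rhythm, 9 for any difference, 2 as higher in the dark and 1 as higher in the light. The shares were 19.4% for a rhythm and 25% for any difference, against 7.62% and 6.14% of all features. They were 5.56% higher in the dark and 2.78% higher in the light, against 3.25% and 2.02%. Of the 36 genes 29 lay above background, and among all features above background the 4 shares were 12.4%, 10.1%, 5.57% and 2.93%. The light and dark shares of the list are thus near those of such features. Because the list was chosen with earlier results of these data known, its higher shares are not a test. Wee1 averaged 7.01, 8.62 and 11.09 at the 3 light times and 10.36, 10.26 and 8.53 at the 3 dark times, a 12.6-fold span (limma adjusted p = 2.13e-08). Ccng2, an atypical cyclin of resting cells, peaked at ZT1.19 with a 5.39-fold span (2.15e-05), and Ccne1, the cyclin E1 that shares its role with Ccne2, 2.87-fold at ZT11.6 (0.00177). Rbl2, the pocket protein p130 that keeps E2F targets off in resting cells, spanned 1.69-fold with its peak at ZT6.53 (0.00284) and was higher in the light (0.53 ± 0.10, adjusted p = 0.00187), a call lost without the livers of high Tff3 (0.46, 0.0652). Cdkn1a, p21, an inhibitor of cyclin-dependent kinases named here after its values were seen, was higher in the dark with all arrays (−2.56 ± 0.46, adjusted p = 0.00135) and without the livers of high Tff3 (−2.53, 3.55e-05). Its ZT10 mean of 3.61 lies below background.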

How the data were processed

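TRIzol was used for the RNA, of which 100 ng per liver were labelled with the WT Plus kit for Clariom S arrays, per the labels' protocols. The authors deposited 1 value per feature and array on a log scale of unstated base, read here as log2 because values run from 1.68 to 19.87. How they corrected background and normalized, and with which software and build, is not given in the sources used. Array medians lay between 5.28 and 5.36, and 0 pairs of arrays were identical (lowest correlation 0.976). Each array was taken as 1 mouse, and p-values measure only the spread between these arrays, whose number limits the precision.

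Of 22206 features 19572 had 1 gene symbol and 2634 none, and the feature of highest mean stood for a gene. All features, unfiltered, entered lmFit and eBayes (R 4.3.3, limma 3.58.1 and data.table, version 1.17.8), which were tested on simulated data. Tests were an F test of a 24 h wave (cosine and sine terms), an F test of the 6 time means, and the mean of the light means minus that of the dark means, with Benjamini-Hochberg adjustment across features and a threshold of 0.05. A span is 2 raised to the doubled amplitude. The background level used 1449 chemosensory receptor features, and summed marker levels are the log2 of summed linear values.

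The members, gene lists, tests and alternatives were chosen with earlier results of these data known. Values of every array are printed for members called in any test, with others added by lowest p of the 24 h test up to 6 (Tk1, Rrm2, Mcm2, Ccne2, Mcm3 and Plk1), and for the 4 of highest mean (Pcna, E2f8, Tyms and Chek1). Up to 4 genes of lowest p are named per pathway list, and further genes were named after their values were seen. Alternatives were quantile normalization, median centring, a filter at the median level, a trended robust prior, array weights, a replicate block, a threshold of 0.01, added 12 h terms, the 99th percentile as background, and omission of single arrays or of the 5 arrays of high Tff3.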

Additional observations from a re-analysis of the deposited data

Results flagged for a closer look

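Of 128 groups of 4 livers (32 genes at 4 times), 3 held a liver farther from the other 3 than a Dixon test at 95% allows, or 2.34%, where chance gives about 1 in 20. At ZT10, Tk1 measured 5.80 in ZT10c, against 6.07 to 6.11 in the other 3 livers. At ZT10, Mcm5 measured 3.84 in ZT10d, against 4.41 to 4.50, all below background. At ZT22, Cdk2, the kinase of S phase entry, measured 7.06 in ZT22b, against 8.05 to 8.25. The 3 cases fall in 3 different livers. Liver ZT6b is not among them, because groups of 3 were not examined in this way.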

How the results depend on the processing

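The light and dark differences of Tk1 and Mcm2 kept their direction under every alternative, and the counts not given here stayed within 1.5 times those reported. At a threshold of 0.01 the 24 h test called 830 features and 0 members, the test of any difference 668 features, and light minus dark 459 features and 1 member. Without the arrays of high Tff3 light minus dark called 617 features, and any difference 2 members. Array weights gave 4 members in light minus dark (Mcm3 and Mcm4 joined). With the 99th percentile as background 11 members lay above it. With 1 array left out, the 24 h test called 1464 to 1691 features and 1 to 3 members, any difference 1078 to 1579 and 1 to 3, and light minus dark 825 to 1427 and 1 to 4, with 4 reached without ZT6b and without ZT14a. Replicate letters did not pair the arrays: over 51 pairs with the same letter the correlation of deviations from the time means ran from −0.236 to 0.226, and 5 of 22 arrays correlated best with an array of their letter. With the replicate block the 24 h test called 1527 features and 2 members, any difference 1169 and 1, and light minus dark 1067 and 2. Genes near background limit what these arrays can show of mitotic genes.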
